A study of Mus musculus with 8 samples.

Results

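The genes *Il7r*, *Rag1*, *Rag2*, *Dntt*, *Ly6d*, *Satb1*, *Ikzf1*, *Ccr9* and *Mef2c* are early lymphoid priming genes, and the regions described are the accessible chromatin around them in MPP3 and MPP4 cells. A peak was counted for a gene when its center fell inside the gene or within 20 kb upstream or 10 kb downstream of it, and no other gene was closer. By this rule the 9 genes had 47 of the 87642 peaks in MPP3 cells and 50 of the 86952 peaks in MPP4 cells. The peaks were chosen by position alone, and *Rag1* had none of its own in either cell type.

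MPP3 and MPP4 cells are multipotent progenitors of the mouse bone marrow, the former with a myeloid and the latter with a lymphoid bias. Accessibility was measured by ATAC-seq, in which a transposase cuts and tags open DNA, in 8 libraries of 5000 sorted cells each. Each of the 4 groups (MPP3 WT, MPP3 Ebf1-KO, MPP4 WT and MPP4 Ebf1-KO) had 2 libraries, from C57BL/6 mice. The labels give Ebf1fl/fl Tie2Cre +/+ for WT and Ebf1fl/fl Tie2Cre +/cre for Ebf1-KO mice, so by the labels all groups carried the floxed alleles, although the series' design text calls the controls Ebf1-wt Tie2Cre. The Tie2 promoter drives Cre in endothelial as well as hematopoietic cells. The mice were 8 weeks old in the MPP3 WT and MPP4 Ebf1-KO groups, 8 to 9 weeks in the MPP3 Ebf1-KO group and 9 weeks in the MPP4 WT group, and 7 were female and 1 was male. The labels gate MPP3 cells as LSK CD150- CD48+, and MPP4 cells in addition as Flt3+.

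The values are the authors' mean log2 CPM of each peak (the log2 of its count scaled to the library total), taken over the libraries of both genotypes of a cell type. Values of single libraries were not analysed here, so no level or difference has a replicate error, and no test was made. The tables also hold the authors' comparison of genotypes, of which no value was used, so nothing that follows says how Ebf1 deletion changed a peak. The target depth was 50 M reads per library, and the depth reached was not analysed here. Sums of CPM over all peaks were 1034290 in MPP3 and 1032360 in MPP4 cells, so levels are relative to the fragments in peaks. Peaks within 1 kb of a transcript start were present for 5 of 6 genes of the sort in MPP3 cells and for 6 of 6 in MPP4 cells. *Ly6a*, which encodes Sca-1, had none in MPP3 cells and a weak one of 1.15 log2 CPM in MPP4 cells, whereas the start peak of *Flt3* was at 5.92 log2 CPM in MPP3 and 7.01 in MPP4 cells. Of the genes of the lineage depletion, *Itgam* had a start peak in both tables (2.85 log2 CPM in MPP3 and 3.16 in MPP4 cells), and *Cd3e* and *Ly6g* had none. Of the genes of mature lineages, *Hbb-bt* had a start peak in both tables (1.68 and 1.18 log2 CPM) and *Gp1bb* in MPP3 cells (1.95 log2 CPM), *Klf1* and *Cd8a* had none, and the part of such cells in the results was not tested.

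Lymphoid priming is the low-level opening and transcription of lymphoid genes in progenitors that can still make other blood cells. *Ikzf1* (Ikaros), *Mef2c* and *Satb1* encode nuclear factors that act early in this step. *Il7r* encodes the receptor chain for interleukin-7, *Ccr9* a chemokine receptor of thymus-seeding cells, and *Ly6d* a surface protein of B-cell-biased lymphoid progenitors. *Rag1* and *Rag2* encode the recombinase that joins antigen receptor gene segments, and *Dntt* encodes the polymerase (TdT) that adds nucleotides at the joints. EBF1 is a factor that specifies the B-cell fate and binds DNA as a dimer at a palindromic site.

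The following sequences (mm10, GRCm38.p6 of RefSeq, written 5′ to 3′ on the strand of the gene) show what the peaks of these genes hold. Peaks with an EBF1 word (TCCCNNGGG or CCCNNGGGA, on either strand) come first, with the word in capitals. The *Dntt* site lies in an intron at chr19:41038256-41038472, and the *Ikzf1* sites at chr11:11686369-11686398, in the peak at the gene start, and chr11:11755074-11755233, in an intron. The *Mef2c* site lies at chr13:83523649-83523948, within 1 kb of an internal start, and its capitals join 2 overlapping words. The *Ikzf1* intron site and the last pair of sequences below were chosen after values had been seen.

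Dntt intron peak: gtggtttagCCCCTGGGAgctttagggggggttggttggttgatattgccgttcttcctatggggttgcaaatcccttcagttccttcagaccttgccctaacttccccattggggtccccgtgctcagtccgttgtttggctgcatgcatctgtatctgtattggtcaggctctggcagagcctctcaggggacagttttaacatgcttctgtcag

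Ikzf1 start peak, part: acccggtaggTCCCGCGGGgtgcaggagcc

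Ikzf1 intron peak of MPP3 cells: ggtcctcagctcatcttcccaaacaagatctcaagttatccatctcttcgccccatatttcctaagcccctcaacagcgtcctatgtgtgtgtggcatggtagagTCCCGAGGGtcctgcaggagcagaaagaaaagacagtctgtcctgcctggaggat

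Mef2c internal start peak, part: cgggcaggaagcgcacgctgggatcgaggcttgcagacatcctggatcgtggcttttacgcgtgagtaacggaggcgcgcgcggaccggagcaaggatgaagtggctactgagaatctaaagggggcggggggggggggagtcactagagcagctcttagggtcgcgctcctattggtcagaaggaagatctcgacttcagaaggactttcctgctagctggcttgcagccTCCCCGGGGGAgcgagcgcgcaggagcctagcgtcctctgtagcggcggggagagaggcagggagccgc

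The promoters of *Il7r* and *Rag1* are shown because peaks lie on their starts. They are the 250 bases before the RefSeq start of each gene, at chr15:9529877-9530126 and chr2:101649533-101649782, both on the minus strand. Capitals mark E-box (CAGGTG or CAGCTG), Runx (TGTGGT) and Ikaros (TGGGAA) words, and PU.1 words (GAGGAAGT or AGAGGAAG) were searched too. None of these words is in the stretch of *Il7r*, which says only that these letters are not in this window. The *Il7r* start peak holds 1 Runx word in both MPP3 and MPP4 cells, outside the 250 bases shown.

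Il7r promoter: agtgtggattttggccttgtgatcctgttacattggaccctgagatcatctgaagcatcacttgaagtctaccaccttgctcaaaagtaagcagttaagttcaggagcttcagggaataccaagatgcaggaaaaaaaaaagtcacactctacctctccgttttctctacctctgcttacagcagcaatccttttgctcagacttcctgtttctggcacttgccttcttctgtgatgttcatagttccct

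Rag1 promoter: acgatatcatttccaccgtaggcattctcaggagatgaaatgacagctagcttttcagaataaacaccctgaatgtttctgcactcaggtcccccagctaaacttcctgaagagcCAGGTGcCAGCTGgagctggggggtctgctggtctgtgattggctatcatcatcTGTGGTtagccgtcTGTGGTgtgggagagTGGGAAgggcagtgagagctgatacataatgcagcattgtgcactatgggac

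The last pair are the *Dntt* peak with the largest whole-peak difference between the tables (not the largest per kb), at chr19:41019279-41019431, with an E-box word in capitals, and 300 bases of the *Ikzf1* peak with the highest level per kb, at chr11:11763277-11763576, with PU.1 words in capitals. The word AGAGGAAGT holds both PU.1 words, which overlap.

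Dntt upstream peak: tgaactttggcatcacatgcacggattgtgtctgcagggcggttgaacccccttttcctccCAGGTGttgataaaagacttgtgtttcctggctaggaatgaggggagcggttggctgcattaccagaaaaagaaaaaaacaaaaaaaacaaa

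Ikzf1 intron peak with PU.1 words: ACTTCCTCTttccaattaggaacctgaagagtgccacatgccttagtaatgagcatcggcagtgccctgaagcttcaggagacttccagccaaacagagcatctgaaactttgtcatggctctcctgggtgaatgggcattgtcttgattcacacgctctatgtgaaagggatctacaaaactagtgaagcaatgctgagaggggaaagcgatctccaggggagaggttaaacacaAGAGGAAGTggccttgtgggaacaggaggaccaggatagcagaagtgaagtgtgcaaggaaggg

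The 9 genes differed widely in how many peaks surrounded them. *Ikzf1* had 15 peaks in MPP3 and 14 in MPP4 cells, *Dntt* had 12 in each, and *Mef2c* had 10 and 13. The other genes had few: *Il7r* 3 and 2, *Satb1* 3 and 4, *Ccr9* 2 and 2, *Ly6d* 1 and 2, and *Rag2* 1 and 1. Over the 25615 and 25335 genes with a peak, the median was 2 peaks a gene. The furthest peak counted upstream was an *Il7r* peak of MPP3 cells 18995 bp away (0.86 log2 CPM), and the nearest beyond the window lay 20764 bp from the longest *Ccr9* transcript in MPP4 cells (1.58 log2 CPM). Downstream, the furthest counted was an *Ikzf1* peak of MPP4 cells at 4535 bp (1.33 log2 CPM) and the nearest beyond the window was 12012 bp from *Ccr9* (1.59 log2 CPM).

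Most peaks of the 9 genes lay away from transcript starts. In MPP3 cells 10 of 47 peaks (21.3%) were within 1 kb of a start of their gene, and in MPP4 cells 10 of 50 (20%). Over all peaks, 26.8% in MPP3 and 27.1% in MPP4 cells were within 1 kb of any start, a looser criterion. Introns held 26 peaks in MPP3 and 27 in MPP4 cells, upstream regions 8 and 9, downstream regions 2 and 3, and a noncoding exon of *Ccr9* 1 and 1.

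**Figure D1:**
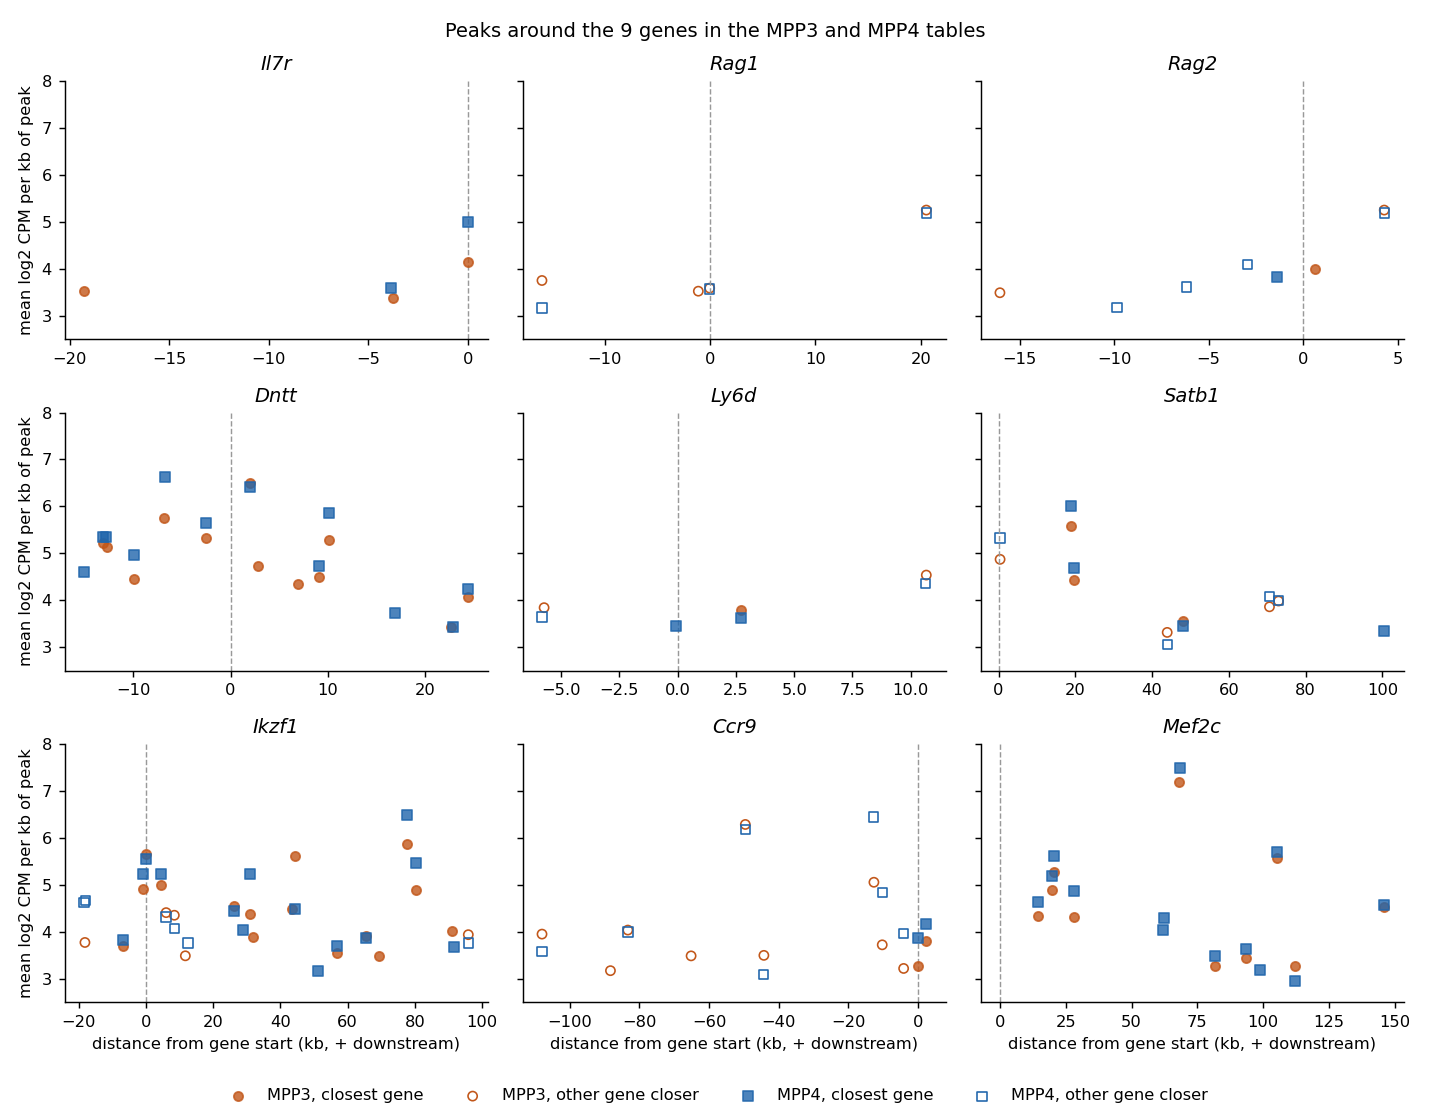
Peaks around each gene by distance from the gene start in kb (x axis; positive is downstream) and mean log2 CPM per kb of peak (y axis), with circles for the MPP3 and squares for the MPP4 table; filled symbols are peaks closest to that gene and open symbols peaks in its window that lie closer to another gene. The peaks of *Ikzf1* and *Mef2c* are spread over the whole gene, those of *Dntt* lie on both sides of its start, and *Rag1* has open symbols only.

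To compare levels between peaks of different width, the mean log2 CPM was taken per kb of peak. On this scale the peaks of the 9 genes had a median of 4.43 in MPP3 (all peaks 4.11) and 4.53 in MPP4 cells (all peaks 4.15), at percentiles 61.3 and 61.5 of all peaks. The range was wide, from 3.26 to 7.20 in MPP3 and from 2.96 to 7.50 in MPP4 cells. Above the median of all peaks were 29 of 47 and 30 of 50, above the 90th percentile 2 and 5, and below the 25th percentile 10 and 8. The peaks had a median length of 279 bp in MPP3 and 321 bp in MPP4 cells (all peaks 273 and 285 bp), and a median GC content of 48.9% and 48.2% (all peaks 52.5% and 51.9%).

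Summed over a gene's own peaks and divided by their length, the same 4 genes led in both cell types. In MPP3 cells it ran from *Mef2c* (42.6 CPM per kb over 4384 bp), *Dntt* (39.5 over 3667 bp), *Ikzf1* (32.9 over 5167 bp) and *Satb1* (29.3 over 1145 bp) to *Rag2*, *Il7r*, *Ly6d* and *Ccr9*. The last 4 lay between 12.3 and 16.0 CPM per kb, below the median of 23.0 over all genes with a peak. In MPP4 cells *Dntt* (50.1 over 3833 bp) stood before *Mef2c* (45.2 over 5597 bp), *Ikzf1* (35.8 over 5277 bp), *Satb1* (31.3 over 1493 bp) and *Il7r* (25.7 over 568 bp), with *Ccr9*, *Rag2* and *Ly6d* between 11.6 and 16.4 CPM per kb against a median of 24.1. With 1 pooled value a gene and table, whether neighbours in this order differ cannot be said.

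Of the MPP3 peaks of the 9 genes, 39 of 47 overlapped an MPP4 peak by at least 1 bp, or 83.0% (95% Wilson interval 69.9 to 91.1, which like all such intervals covers counting error only), and over all MPP3 peaks 75.7% did. The same 39 pairs made up 78% of the MPP4 peaks (64.8 to 87.2; all peaks 76.7%). The peaks found in only 1 table, 8 in MPP3 and 11 in MPP4 cells, were weaker by their medians than the matched ones, though some lay above the median of all peaks (2.24 and 2.35 log2 CPM). They had a median of 1.68 and 1.69 log2 CPM and none above 2.63, whereas matched peaks had medians of 2.98 and 3.33. Over all peaks, those found in only 1 table had medians of 1.21 and 1.20 log2 CPM, and matched ones 2.68 and 2.82.

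Since the tables were normalized separately, differences between them are given as MPP4 minus MPP3 log2 CPM after subtraction of the median over all 66324 matched peaks (0.04), as a description with no test. The pooled libraries of the cell types also differ in age and sex, and effects of these cannot be told apart from the cell type. The 39 pairs had a median difference of 0.20 (quartiles -0.06 and 0.54), and 26 were above and 13 below 0. Of these pairs, 11 were at *Ikzf1*, 10 at *Dntt* and 10 at *Mef2c*, and *Rag1* and *Rag2* had none. At least 0.5 higher in MPP4 cells were 10 of 39 (25.6%; 19.3% of all matched peaks), and at least 0.5 lower were 2 of 39 (5.13%; 15.3% of all matched peaks). Taken per kb of each table's own peak, the median was 0.25, with 31 above 0, 9 at least 0.5 higher (12.1% of all matched peaks) and 1 at least 0.5 lower (8.53% of all matched peaks). Against all matched peaks, a smaller share of the 39 pairs was lower and a somewhat larger share was higher.

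The pairs of the 9 genes, most of them at *Ikzf1*, *Dntt* and *Mef2c*, were set beside 15 other genes of the lymphoid pathway. They had a higher median difference and a smaller share of lower peaks. Their share of higher peaks was similar for whole peaks. Per kb, 9 of the 39 pairs and 10 of the 69 of the other genes were at least 0.5 higher (12.1% of all matched peaks). By at least 0.5, 25.6% of the 39 pairs were higher and 5.13% lower (19.3% and 15.3% of all matched peaks). Of the 15 other genes, *Cd79a* had no matched peak. The 69 matched peaks of the rest had a median of 0.07, with 18 higher (26.1%) and 12 lower (17.4%) by at least 0.5. Among them *Flt3*, a cytokine receptor used to sort MPP4 cells, had a median of 0.62 over 8 pairs (0.41 per kb). *Blnk*, a B-cell adaptor, was at 0.53 over 6 pairs and *Ebf1* itself at 0.32 over 10 pairs, but per kb these were 0.07 and 0.02, and the list's median per kb was -0.0068. For 15 myeloid genes the 53 matched peaks had a median of -0.31 (-0.23 per kb), with 4 higher (7.55%) and 18 lower (34.0%). The granule gene *Mpo* was at -2.06 over 3 pairs (-1.27 per kb). *Cebpe*, a granulocyte factor, was at -1.58 over 4 pairs (-0.96 per kb). By contrast, the receptor gene *Csf3r* was at 0.32 over 2 pairs (0.06 per kb). *Gfi1*, a repressor in granulocytes, was at 0.19 over 4 pairs (0.26 per kb). *Cebpa*, a myeloid determinant, was at -0.03 over 3 pairs for whole peaks but 0.14 per kb. These lists are given by their counts and medians, and nothing was tested between them.

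**Figure D2:**
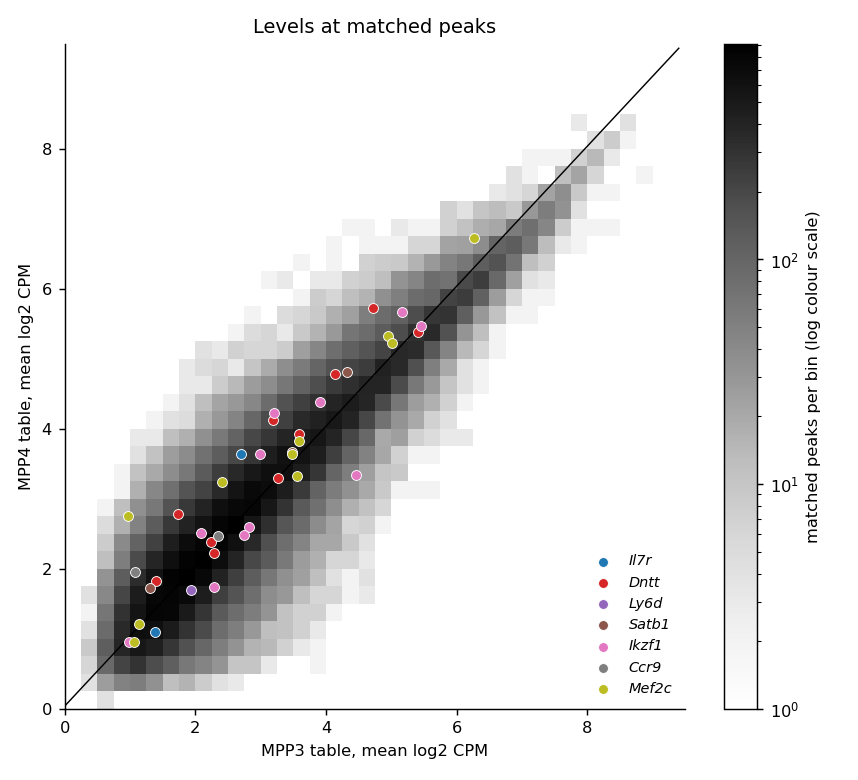
Mean log2 CPM of matched peaks in the MPP3 table (x axis) and the MPP4 table (y axis): grey squares count all 66324 matched peaks per bin on a log colour scale, colored points are the 39 pairs of the 9 genes, and the line marks the median difference of 0.04. Of the colored points 26 lie above and 13 below the line.

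**Figure D3:**
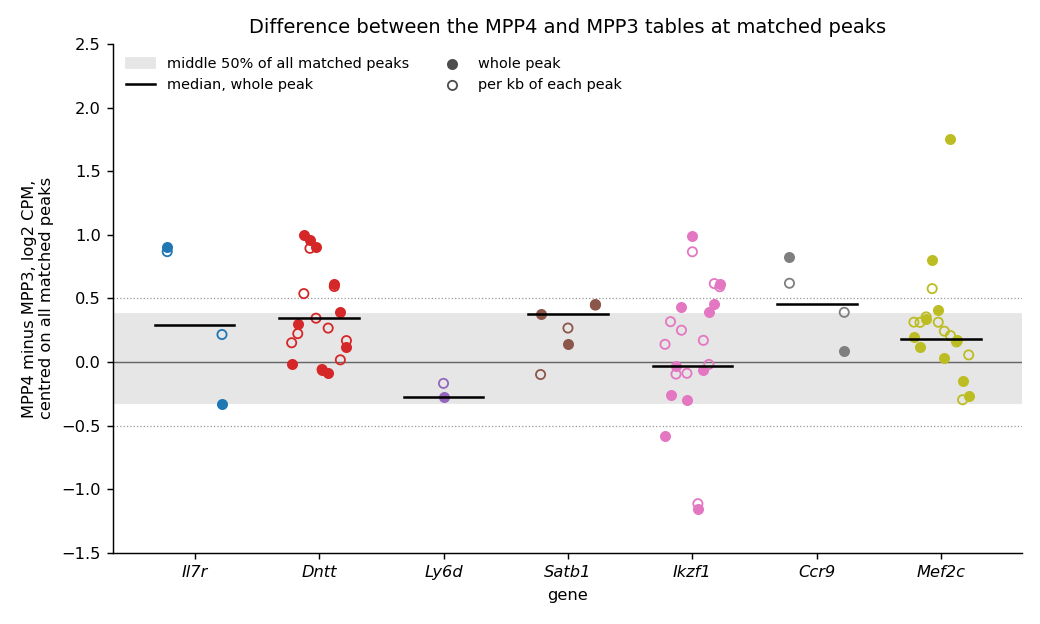
MPP4 minus MPP3 mean log2 CPM at matched peaks by gene (y axis, log2 scale, centred on all matched peaks), with filled points for whole peaks, open points per kb of each peak, black bars for the median of the filled points, a grey band for the middle 50% of all matched peaks and dotted lines at 0.5 and -0.5. Medians are positive for *Il7r*, *Dntt*, *Satb1*, *Ccr9* and *Mef2c* and negative for *Ly6d*, and that of *Ikzf1* is -0.03 for whole peaks but 0.17 per kb.

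Among the receptor and surface genes, *Il7r* (chr15:9505788-9530176) had its main peak on the transcript start. It was at 2.70 log2 CPM in MPP3 and 3.64 in MPP4 cells, 0.91 higher after centring (a fold of 1.87), which placed it at percentile 93.0 of all matched peaks. Per kb the level was 4.15 and 5.00, with a centred difference of 0.87. A weak peak 3454 bp upstream of the nearest start was at 1.38 and 1.10 log2 CPM, with a centred difference of -0.33 for the whole peak but 0.22 per kb. Another *Il7r* peak, 18995 bp upstream, was found in MPP3 cells only, at 0.86 log2 CPM. Of the *Il7r* peaks, the start peak was therefore the strong one in both tables and the one with the large difference.

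*Ccr9* (chr9:123678439-123784330) had its own peaks only near the RefSeq start. The peak at the start was among the weakest in MPP3 cells, at 1.08 log2 CPM, and was at 1.95 in MPP4 cells, 0.83 higher (1.78-fold). The peak 2424 bp downstream, in a noncoding exon, was at 2.34 and 2.47 log2 CPM, a centred difference of 0.09. Larger differences stood upstream, in an intron of the longest *Ccr9* transcript, at 3 peaks that lie closer to the predicted gene *Gm17020* and so were not counted. The strongest of them, 12629 bp upstream of the RefSeq start, was at 3.84 in MPP3 and 5.29 log2 CPM in MPP4 cells, 1.41 higher (2.65-fold). The peaks 10238 bp and 4088 bp upstream were at 1.20 and 1.20 log2 CPM in MPP3 and at 2.89 and 2.58 in MPP4 cells, 1.65 and 1.34 higher. All 3 were also higher per kb (1.41, 1.13 and 0.76), and the peak 4088 bp upstream holds 2 EBF1 words in both tables. Other peaks in the window did not differ in this way. A strong peak 49578 bp upstream, closest to *Lztfl1*, was at 5.08 and 5.11 log2 CPM, a centred difference of -0.01. A weak peak 44244 bp upstream was at 1.57 and 0.52 log2 CPM, a centred difference of -1.09 (-0.39 per kb), and another 107995 bp upstream, closest to *Slc6a20a*, at 1.98 and 1.30, a difference of -0.73 (-0.36 per kb).

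*Ly6d* (chr15:74762056-74763620) was among the genes with the least accessible chromatin. Its matched peak, 2714 bp downstream of the start, was at 1.94 in MPP3 and 1.70 log2 CPM in MPP4 cells, a centred difference of -0.28, or -0.17 per kb. A peak 91 bp upstream of the start was called in MPP4 cells only, at 1.62 log2 CPM. *Ly6d* thus had no start peak in MPP3 cells.

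Among the recombination genes, *Rag1* (chr2:101638282-101649501) and *Rag2* (chr2:101624718-101632529) lie close to each other on opposite strands. The peak on the *Rag1* start was counted for *B230118H07Rik*, a gene that overlaps the locus, and was at 1.96 in MPP3 and 1.75 log2 CPM in MPP4 cells. It covered 252 and 279 of the 300 bases of the RefSeq promoter, whose sequence holds 2 E-box, 2 Runx and 1 Ikaros words. Of 32851 RefSeq promoters of that length, 32.9% hold an E-box, 16.8% a Runx and 25.6% an Ikaros word. Its centred difference was -0.25 for the whole peak and -0.00285 per kb. The strongest peak at the locus lay in a *Rag2* intron, 4294 bp from the *Rag2* start, at 4.02 and 4.04 log2 CPM, also closest to *B230118H07Rik*. Its centred difference was -0.02. A weak peak 15967 bp upstream of *Rag1*, closest to *Traf6*, was at 2.01 and 1.12 log2 CPM, a centred difference of -0.93 (-0.57 per kb).

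*Rag2* had 1 peak of its own in each table, at different sites. In MPP3 cells it lay 570 bp downstream of the nearest start, at 1.66 log2 CPM, and in MPP4 cells 1415 bp upstream of the nearest start, at 2.08 log2 CPM. No peak touched the RefSeq promoter of *Rag2* in either table. Weak peaks closest to *B230118H07Rik* were also found in 1 cell type only. In MPP4 cells they lay 9856, 6175 and 2948 bp upstream of the RefSeq start of *Rag2*, at 0.69, 1.57 and 1.98 log2 CPM. In MPP3 cells they lay 16061 bp upstream of that of *Rag2* and 1121 bp upstream of that of *Rag1*, at 0.98 and 1.32.

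*Dntt* (chr19:41029275-41059525) was surrounded by strong peaks, yet none touched its RefSeq promoter. The highest per kb in MPP3 cells lay in an intron 2006 bp from the start, at 5.40 log2 CPM (6.49 per kb, percentile 95.1), and was at 5.38 in MPP4 cells. The highest in MPP4 cells lay 6801 bp upstream, where the level was 4.72 in MPP3 and 5.73 log2 CPM in MPP4 cells (6.62 per kb in MPP4, percentile 95.9). The centred difference was -0.06 for the intron peak and 0.96 for the upstream peak.

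Of the 10 matched *Dntt* peaks, 7 were above and 3 below 0, with a median of 0.35. At least 0.5 higher were 4 (40%; 19.3% of all matched peaks), and none was at least 0.5 lower (15.3% of all matched peaks). Per kb, 3 were at least 0.5 higher (12.1% of all matched peaks) and none at least 0.5 lower (8.53% of all matched peaks), with a median of 0.24. The peak 9920 bp upstream, printed above, had the largest whole-peak difference, 1.00 (1.74 and 2.78 log2 CPM), of which 0.54 remained per kb. The peak 2542 bp upstream was at 3.19 and 4.13, 0.90 higher (0.34 per kb), and the intron peak at 10062 bp at 4.14 and 4.79, 0.61 higher (0.59 per kb). The lowest value, -0.09, belonged to the intron peak with the EBF1 word, at 2.28 and 2.23 log2 CPM, and was 0.27 per kb. Peaks in only 1 table were at 2.62 and 2.59 log2 CPM in MPP3 cells, both in introns, and at 2.40 and 0.99 in MPP4 cells. Of the 4 *Dntt* peaks that were at least 0.5 higher in MPP4 cells, 3 lay upstream of the start. Per kb, the one at 2542 bp was not among the higher peaks. The matched peaks 13137 and 12728 bp upstream differed by only -0.01 and 0.30.

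Among the nuclear factors, *Ikzf1* (chr11:11685003-11772926) had the most peaks, with differences in both directions. Its start peak was at 5.45 in MPP3 and 5.46 log2 CPM in MPP4 cells, a centred difference of -0.03. A second start peak, 897 bp upstream of the RefSeq start, was at 2.82 and 2.59, with a centred difference of -0.26 for the whole peak but 0.32 per kb. The highest per kb lay in an intron 77546 bp from the start, at 5.17 and 5.66 log2 CPM (5.88 and 6.48 per kb, percentiles 89.7 and 94.9), 0.46 higher in MPP4 cells. The largest positive difference was in an intron at 30890 bp, with 3.20 and 4.23 log2 CPM, 0.99 higher (0.87 per kb). The lowest difference of all 39 pairs was also in *Ikzf1*, at 44384 bp, with 4.46 and 3.34 log2 CPM, a centred value of -1.16 (-1.11 per kb) at percentile 2.75 of all matched peaks. Over its 11 pairs, 5 were above and 6 below 0, and the median of -0.03 was 0.17 per kb and 0.0088 without centring.

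The peaks of *Ikzf1* found in MPP4 cells only were weak, at 1.82, 1.69 and 1.33 log2 CPM, and 4 were found in MPP3 cells only, at 0.83 to 1.74 log2 CPM. Outside the count, a peak 18176 bp upstream of the RefSeq start, closest to *Gm11999*, was at 1.69 in MPP3 and 3.84 log2 CPM in MPP4 cells. It was 2.12 higher after centring, of which 0.91 remained per kb, as the MPP4 peak was 566 bp and the MPP3 peak 236 bp long. Over the windows of all 9 genes, 20 matched peaks lay closer to another gene, with a median difference of 0.09. By at least 0.5, 5 were higher (25%; 19.3% of all matched peaks) and 3 lower (15%; 15.3% of all matched peaks), shares near those of all matched peaks. Per kb their median was -0.06, with 7 above 0.

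*Satb1* (chr17:51736187-51833290) had its own peaks at internal starts. The peak 18761 bp from its first start was at 4.32 in MPP3 and 4.81 log2 CPM in MPP4 cells (5.59 and 6.02 per kb), 0.46 higher. Its neighbour at 19735 bp was at 3.49 and 3.66, 0.14 higher. A weak intron peak at 48154 bp was at 1.31 and 1.72, a centred difference of 0.37 for the whole peak but -0.0985 per kb, and 1 peak downstream was found in MPP4 cells only, at 1.42 log2 CPM. The broad peak on the first start, 1040 bp long in MPP3 cells and counted for *Gm6934*, was at 4.93 and 5.33 log2 CPM, 0.36 higher (0.47 per kb). The peaks at *Satb1* starts were thus each higher in MPP4 cells, by less than 0.5.

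*Mef2c* (chr13:83504034-83667080) held the strongest peak of the 9 genes in both tables, at an internal start 68193 bp from its first start. It was at 6.27 in MPP3 and 6.72 log2 CPM in MPP4 cells (7.20 and 7.50 per kb, percentiles 98.5 and 99.4), 0.41 higher (1.33-fold). Other peaks at internal starts were at 4.95 and 5.33 log2 CPM (20551 bp, 0.34 higher) and at 3.48 and 3.64 (19765 bp, the peak with the EBF1 words, 0.12 higher). No peak touched the RefSeq promoter at its first start.

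Of the 10 matched *Mef2c* peaks, 8 were above and 2 below 0, with a median of 0.18. The largest difference of all 39 pairs was an intron peak 93580 bp from the start, 1.75 higher (0.96 and 2.76 log2 CPM), but the MPP4 peak was 549 bp and the MPP3 peak 181 bp long, and per kb the difference was 0.21. The intron peak at 28135 bp was higher by 0.80 (2.40 and 3.24 log2 CPM) and by 0.58 per kb. The lowest value was -0.27, at 145989 bp (3.55 and 3.33 log2 CPM), and was 0.06 per kb. The peaks in MPP4 cells only, all in introns, were at 2.44, 2.63 and 0.60 log2 CPM.

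The words of 5 factors were counted in the whole peaks of the 9 genes and of all genes. EBF1 words were in 4 of 47 MPP3 peaks (8.51%, Wilson interval 3.36 to 19.9) and 3 of 50 MPP4 peaks (6%, 2.06 to 16.2). All peaks of the same length classes held them in 8.23% and 7.72%. The peaks with an EBF1 word in both tables were the *Dntt*, *Ikzf1* start and *Mef2c* peaks printed above, and the other *Ikzf1* site was in an MPP3 peak of 0.83 log2 CPM with no MPP4 match.

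E-box words were in 18 MPP3 peaks (38.3%; same length classes 40.7%) and 22 MPP4 peaks (44%; 43.1%), 6 and 7 of them at *Dntt*. PU.1 words were in 9 (19.1%; 16.8%) and 10 (20%; 18.9%), and Runx words in 13 (27.7%; 31.6%) and 16 (32%; 34.3%). Ikaros words were in 15 (31.9%; 24.2%) and 16 (32%; 25.4%), 8 and 7 of them at *Ikzf1*. For all 5 words the share over all peaks of the same length classes lay within the Wilson interval of the 9 genes in both tables. A word is a match of letters and not a bound site.

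**Figure D4:**
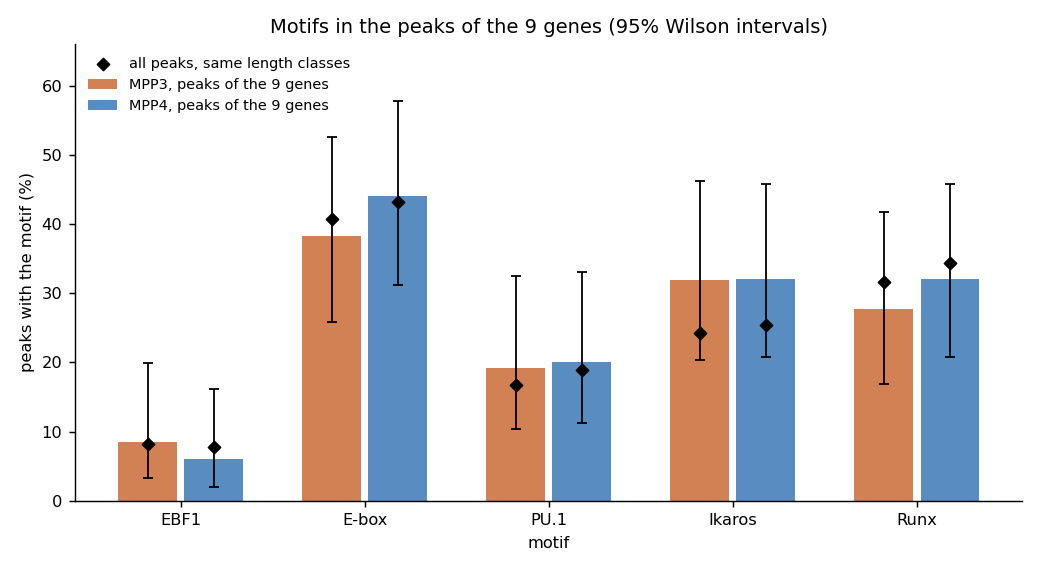
Share of peaks of the 9 genes with each word (y axis, percent of 47 MPP3 and 50 MPP4 peaks), with 95% Wilson intervals as error bars; diamonds give the share over all peaks of the same length classes. Every diamond lies within its interval, from EBF1 at 8.51% and 6% to E-box at 38.3% and 44%.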

How the data were processed

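ATAC-seq was measured in 8 libraries of MPP3 and MPP4 cells, grouped by the labels. The authors trimmed reads with Cutadapt 2.10, mapped them to mm10, removed duplicates and kept short, nucleosome-free fragments with deepTools 3.3.2. Peaks were called with MACS2 2.2.7.1, merged over genotypes within a cell type, and counted, and edgeR 3.32.0 gave the deposited mean log2 CPM of each peak. Peak boundaries therefore differ between the tables, and long fragments do not enter. The authors also deposited the log2 fold change, F, p-value and FDR of their genotype comparison for each peak, and these columns were not used. No paired analysis was possible because values of single libraries were not analysed here.

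Genes were taken from GENCODE vM21, of any type, and a peak went to the gene whose transcript start, midpoint or end was nearest to the peak center. Start peaks lay within 1 kb of a transcript start. Peaks were matched at 1 bp of overlap, taking the largest. The level per kb is log2 CPM minus log2 of the peak length in kb. Sequence came from RefSeq GRCm38.p6, and 15 of 15 promoter entries of the 9 genes equalled the genome (8 of 9 genes have an entry, and that of *Ly6d* was not used). Assignment, matching and word counts were tested on simulated data. Python 3.11.15, pandas 2.3.3, scipy 1.17.1, pysam 0.24.0 and matplotlib 3.10.9 were used.

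The 9 genes, the comparison lists and the words were chosen with earlier results of these data known. For each gene the text names its start peaks, the highest peak per kb, the matched peaks with the largest differences in each direction, and peaks of 1 table where there were at most 3. Peaks in the windows that lie closer to another gene are given beside these, and those named were chosen after their values were seen. Some genes of the comparison and marker lists are not reported here.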

Additional observations from a re-analysis of the deposited data

How the results depend on the processing

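Values without replicates were taken as moved when they left their Wilson interval, or changed by 0.1 on the log2 scale, by 5 percentile points or, for counts, by over 1.5 times. Counting any peak in the windows gave 72 MPP3 peaks, and a minimum of 2 log2 CPM left 31, with 93.5% of MPP3 and 88.2% of MPP4 peaks matched and median percentiles of 74.0 and 75.5. Without division by length the median percentile in MPP4 cells was 56.2. In 200 bp windows PU.1 words were in 10% and Ikaros words in 18% of MPP4 peaks (all peaks 14.8% and 15.1%). The median difference of *Ikzf1* turned positive without centring (0.0088), per kb (0.17), at 2 log2 CPM or more (0.40) and when centred within classes of mean level (0.12), an alternative chosen after seeing the data. That alternative gave the 39 pairs a median of 0.22, with 13 higher and 2 lower by at least 0.5 (18.2% and 15.4% of all matched peaks). In all, 34 alternative values for the 9 genes together stayed within these limits, among them those with narrower windows, protein-coding genes only, 50% overlap and starts within 500 bp. Of the medians of single genes, 23 alternative values stayed within the limits and 7 left them with the same sign. At 2 log2 CPM or more the median of *Ccr9* was 0.09, that of *Il7r* 0.91 and that of *Dntt* 0.21. Per kb, *Il7r* was at 0.54, *Dntt* at 0.24, *Satb1* at 0.27 and *Ly6d* at -0.17. The 50% overlap was of the own peak for shares and of both peaks for differences. Fewer peaks enter under the minimum level, and depth could not be examined, since no value of a single library was used.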
